A study of Mus musculus with 8 samples.

Results

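The mammalian enzymes that write and remove cytosine methylation were followed in R1 mouse embryonic stem cells in which a calcineurin splice variant had been targeted. The set was chosen by name and holds the DNA methyltransferase genes Dnmt1, Dnmt3a, Dnmt3b and Dnmt3l, the Tet genes Tet1, Tet2 and Tet3, and Uhrf1. Of these 8 genes, 7 had a matched probe, with 13 probes among them, and no probe was matched to Tet1 here. All 7 were among the 22423 genes tested. R1 is an established line of mouse embryonic stem cells, and in every group it had been made to form embryoid bodies, suspended aggregates in which differentiation begins, for 48 h. The Control group (3 arrays) received a control siRNA, and the other groups received siRNA 1 (3 arrays) or siRNA 2 (2 arrays) against CnAb1, the CnAβ1 splice variant that the gene Ppp3cb gives rise to. RNA was read 48 h after transfection on 1-colour Agilent arrays. The labels name no genetic change or drug for any group, and the siRNA is the one difference they give. The labels do not say whether replicates were separate cultures, so the p-values below measure the spread between these arrays, which may be technical.

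DNA methylation in mammals is set by DNMT3A and DNMT3B, which methylate new sites, and is copied to the daughter strand by DNMT1, which UHRF1 brings to hemimethylated DNA. DNMT3L has no catalytic activity of its own and stimulates DNMT3A and DNMT3B. The TET enzymes oxidise 5-methylcytosine, which starts its removal. Embryonic stem cells express most of the family, and methylation rises as they leave the naive pluripotent state.

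The promoter windows of 4 members are printed because 3 of them, the Dnmt3 genes, encode the de novo enzymes and their cofactor, among which the arrays moved in opposite directions, and because Tet3 separated the slides. Each window runs from 250 bases before to 50 bases after a transcription start in RefSeq (build GRCm38.p6), is written 5′ to 3′ as that table gives it, and is the window of the gene with the most CG dinucleotides. Capitals mark CG, the site at which these enzymes act.
Dnmt3a, chr12:3806910-3807209, + strand: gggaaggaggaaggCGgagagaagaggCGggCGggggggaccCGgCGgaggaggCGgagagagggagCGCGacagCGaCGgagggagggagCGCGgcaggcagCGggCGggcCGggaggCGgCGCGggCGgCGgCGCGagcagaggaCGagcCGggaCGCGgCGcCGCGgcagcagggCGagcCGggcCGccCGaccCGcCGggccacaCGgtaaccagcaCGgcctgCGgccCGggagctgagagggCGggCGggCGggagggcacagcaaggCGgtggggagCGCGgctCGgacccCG
Dnmt3b, chr2:153649199-153649498, + strand: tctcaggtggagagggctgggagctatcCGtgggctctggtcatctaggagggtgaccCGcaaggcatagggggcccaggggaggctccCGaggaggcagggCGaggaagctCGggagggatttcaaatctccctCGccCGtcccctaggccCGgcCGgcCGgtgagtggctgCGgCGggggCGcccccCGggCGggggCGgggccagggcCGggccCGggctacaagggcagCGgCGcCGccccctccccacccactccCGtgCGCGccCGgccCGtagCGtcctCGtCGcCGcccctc
Dnmt3l, chr10:78042037-78042336, + strand: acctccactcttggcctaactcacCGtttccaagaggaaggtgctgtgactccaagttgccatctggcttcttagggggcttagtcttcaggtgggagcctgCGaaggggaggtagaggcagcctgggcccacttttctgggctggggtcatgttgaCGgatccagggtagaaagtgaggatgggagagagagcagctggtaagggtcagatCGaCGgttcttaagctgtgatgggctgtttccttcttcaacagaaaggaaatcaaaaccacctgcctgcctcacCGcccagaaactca
Tet3, chr6:83441629-83441928, - strand: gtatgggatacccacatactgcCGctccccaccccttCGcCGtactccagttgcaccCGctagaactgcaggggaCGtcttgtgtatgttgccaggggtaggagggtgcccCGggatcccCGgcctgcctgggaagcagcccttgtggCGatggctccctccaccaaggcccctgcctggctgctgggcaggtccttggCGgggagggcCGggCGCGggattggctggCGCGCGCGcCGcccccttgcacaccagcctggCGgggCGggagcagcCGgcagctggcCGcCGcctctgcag

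The Dnmt3a window held 47 CG dinucleotides, and 1.44% of the 32851 windows in the table held as many or more. The Dnmt3b window held 30 (11.7% of windows), the Tet3 window 22 (23.1%) and the Dnmt3l window only 6 (56.4%). The median over all windows was 7, so that the Dnmt3l window was near the middle of all windows and held fewer CG than those of the enzymes it stimulates. The richest windows of the members not printed held 57 CG for Tet2, 33 for Dnmt1, 33 for Uhrf1 and 17 for Tet1. Both strands of the family's 15 windows were searched for 5 short motifs, chosen for this family with its results known. The GC-box core GGGCGG lay in 12 of 15 windows, against 35.7% of all windows, and CCAAT lay in 5 of 15, against 37.4%. The E2F-type motif TTTGGCGC lay in 1 window, that of Dnmt1 (0.514% of all windows), and its variant TTTCCCGC in 0 (1.07%). CACGTG, an E-box, lay in 2 windows, those of a later start of Dnmt3a and a later start of Dnmt3l (7.15% of all windows). No motif contains another, and GGGCGG, TTTGGCGC, TTTCCCGC and CACGTG each hold a CG. A match is a description of these letters, and the table does not tie a start to the transcript a probe reads.

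The 8 arrays lay on 3 slides. Slide 1 held replicate 1 of every group, slide 2 held Control replicate 2 and siRNA 1 replicate 3, and slide 3 held Control replicate 3 and replicate 2 of both siRNAs. Slide 1 and replicate number 1 therefore cannot be told apart, and every group had its own position on the slide. On the first principal component, which held 42.3% of the variance, the slide 1 arrays lay between -34.6 and -32.1 and the others between 13.3 and 26.2. Of 43020 spots that were no control spots, 68.0% to 75.1% exceeded background clearly by the scanner's flag (well above background), and no spot was saturated. Precision is limited by how few arrays there were. One probe was matched to Ppp3cb, and whether it reads the targeted splice variant is not given in the sources used here, so that it does not check the knockdown. Its level (log2 of the processed signal less the array's 75th percentile of it, the scale used throughout) was 0.75, 0.52 and 0.62 in Control, 0.18, 0.39 and 0.61 under siRNA 1 and 0.42 and 0.62 under siRNA 2. These groups overlapped, and the fitted difference of both siRNAs was -0.17 (SE 0.12, limma's adjusted p = 0.9999). Of the pluripotent cell markers, 8 of 8 were well above background on all arrays, as were 6 of 8 primitive streak and mesoderm markers, 11 of 13 primitive and visceral endoderm markers, 6 of 7 trophectoderm markers and 5 of 8 fibroblast markers. In such bulk RNA, fewer cells of a type and less RNA per cell cannot be told apart.

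Of the maintenance genes, Dnmt1, the copying enzyme, stood at 1.40, 0.85 and 1.09 in Control replicates 1 to 3, at 0.97, 1.13 and 0.93 under siRNA 1 and at 1.06 and 1.30 under siRNA 2. All siRNA arrays lay inside the Control range, whose extremes were Control 1 and Control 2. The group means were 1.11 ± 0.28 (SD, n = 3), 1.01 ± 0.10 (SD, n = 3) and 1.18 ± 0.17 (SD, n = 2). Against Control, the mean of both siRNAs differed by -0.02 (95% interval -0.34 to 0.31, limma's adjusted p = 0.9999).

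Uhrf1, the factor that guides DNMT1 to newly replicated DNA, stood at 4.60, 4.55 and 4.52 in Control, at 4.25, 4.54 and 4.57 under siRNA 1 and at 4.61 and 4.69 under siRNA 2. Both siRNA 2 arrays lay just above every Control and every siRNA 1 array, and replicate 1 of siRNA 1 was the lowest. Its siRNA 2 arrays were the only ones of a member that did not overlap another group's arrays in any of the 4 siRNA comparisons. Such a gap upward was common, as 8.75% of all genes had it between siRNA 2 and Control and 7.26% between siRNA 2 and siRNA 1. The fitted differences were 0.10 against Control (95% interval -0.18 to 0.37, limma's adjusted p = 0.9998) and 0.20 against siRNA 1 (95% interval -0.08 to 0.47, adjusted p = 1.0). The second Uhrf1 probe, matched to another transcript, gave 0.12 and 0.24 for the same differences. With siRNA 1, both probes pointed the other way, by -0.10 and -0.12 against Control, and none of these values passed the threshold.

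Of the de novo enzymes, Dnmt3a stood at -0.33, -0.67 and -0.54 in Control, at -0.99, -0.48 and -0.27 under siRNA 1 and at -0.77 and -0.43 under siRNA 2. The lowest arrays were replicate 1 of siRNA 1 and replicate 1 of siRNA 2, followed by Control 2, and all groups overlapped. The mean of both siRNAs differed from Control by -0.08 (95% interval -0.51 to 0.35, limma's adjusted p = 0.9999).

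Dnmt3b, the other de novo enzyme, gave bright signals on each of its 3 probes. The brightest stood at 7.37, 7.20 and 7.21 in Control, at 7.13, 7.39 and 7.32 under siRNA 1 and at 7.16 and 7.51 under siRNA 2. The groups overlapped, and the difference of both siRNAs was 0.05 (95% interval -0.22 to 0.31, limma's adjusted p = 0.9999). The other probes gave -0.01 and 0.09. Quantile normalization turned the difference of the brightest probe to -0.07, so that no direction can be given for Dnmt3b.

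Dnmt3l, the cofactor of the de novo enzymes, varied most among the Dnmt genes. Its levels were 4.18, 4.90 and 4.36 in Control, 5.26, 4.57 and 4.42 under siRNA 1 and 5.04 and 4.54 under siRNA 2. Replicate 1 of both siRNAs was highest, Control 2 came next, and Control 1 was lowest, so that the groups overlapped. The group means were 4.48 ± 0.38 (SD, n = 3), 4.75 ± 0.45 (SD, n = 3) and 4.79 ± 0.36 (SD, n = 2). The fitted difference was 0.29 for both siRNAs (95% interval -0.31 to 0.89, limma's adjusted p = 0.9999), 0.27 for siRNA 1 and 0.31 for siRNA 2. The value for siRNA 1 was 0.01 without its replicate 1, and that for siRNA 2 was 0.06 without its replicate 1, which left a lone siRNA 2 array. For both siRNAs, leaving out 1 array gave 0.14 (without Control 1) to 0.50 (without Control 2), and leaving out slide 1 turned the difference to -0.12.

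Tet2 and Tet3 oxidise 5-methylcytosine. Tet2 stood at -2.02, -1.77 and -2.37 in Control, at -1.50, -2.08 and -1.84 under siRNA 1 and at -1.82 and -1.80 under siRNA 2. Control 3 was lowest and replicate 1 of siRNA 1 highest, and the groups overlapped. Tet2 was the only member whose difference of both siRNAs, 0.25 (95% interval -0.17 to 0.66, limma's adjusted p = 0.9999), kept its sign under all alternatives run, between 0.09 and 0.39. Its second, dimmer probe gave 0.10.

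Tet3 stood at -2.32, -1.39 and -1.32 in Control, at -2.44, -1.16 and -1.25 under siRNA 1 and at -2.53 and -1.29 under siRNA 2. In every group 1 array was far below the rest, and in every group it was replicate 1, the array on slide 1. The difference of both siRNAs was -0.09, with a wide interval of -1.11 to 0.93 (limma's adjusted p = 0.9999).

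**Figure D1:**
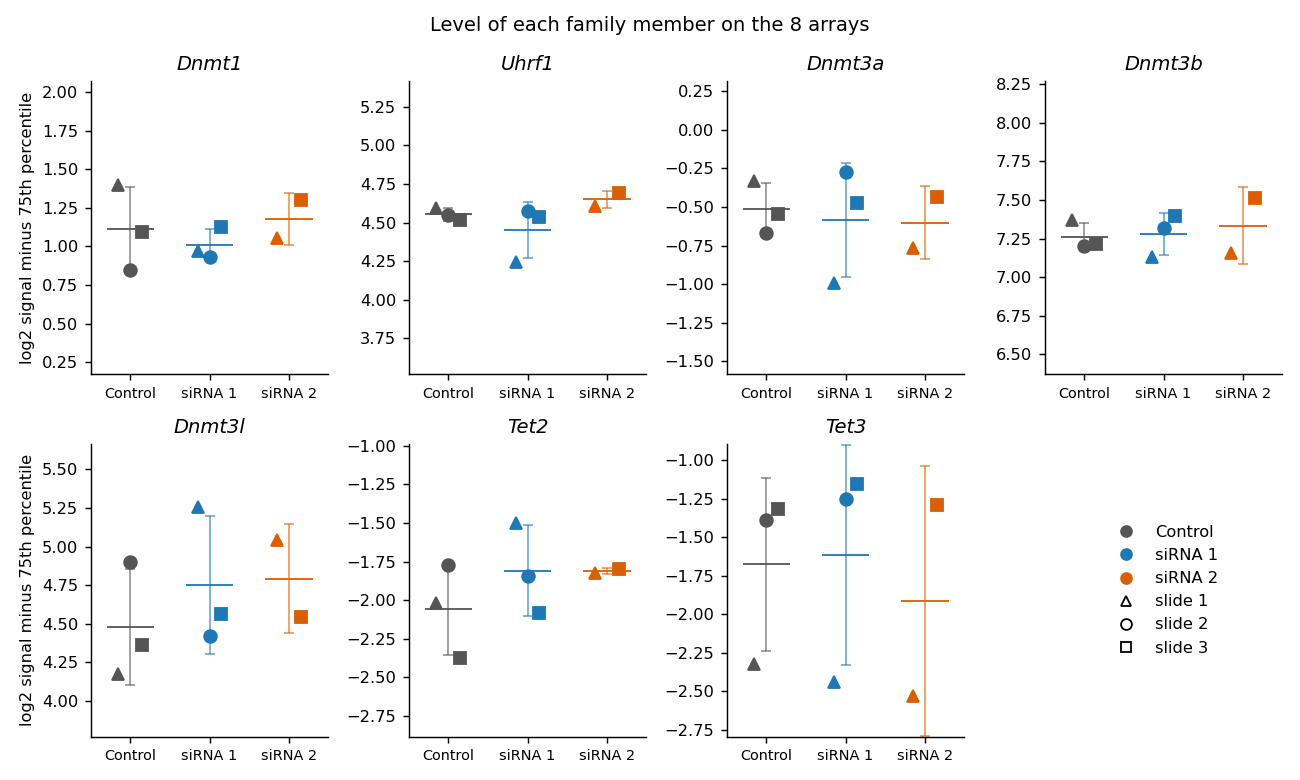
Level of the 7 measured members on each array, in log2 units relative to the array's 75th percentile, by group (x axis and colour) and slide (symbol). Horizontal lines are group means and bars 1 SD (n = 3, 3 and 2), and every panel spans the same log2 range. The 3 slide 1 arrays of Tet3 lie between -2.53 and -2.32, below all others, and Dnmt3l is highest on the slide 1 arrays of both siRNAs.

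Across the family, 0 of 7 members passed an adjusted p of 0.05 in limma's test of both siRNAs against Control, where 0% of all genes passed. At an unadjusted p under 0.05 the count was again 0 of 7, against 804 of 22423 genes (3.59%). The differences ran from -0.09 (Tet3) to 0.29 (Dnmt3l) with a median of -0.002, beside 0.007 over all genes, and 3 members lay above 0. For siRNA 1 alone, 0 of 7 passed (0% of genes), and for siRNA 2 alone 0 of 7 passed (0% of genes). The members' medians were 0.02 and 0.07, beside 0.02 and -0.001 over all genes. Between the siRNAs, 0 of 7 passed (0% of genes), and at an unadjusted p under 0.05 there were 0 members in each of these 3 comparisons, against 3.5%, 3.35% and 3.36% of all genes. The arrays of both siRNAs overlapped those of Control in all 7 members, while 3.44% of genes had no overlap. The siRNA comparisons share the Control arrays. For the mean of both siRNAs the intervals allow at most a 1.17-fold change of Uhrf1 in either direction. For Dnmt3b or Dnmt1 they allow at most a 1.24-fold rise, and a fall of at most 1.16-fold for Dnmt3b and 1.27-fold for Dnmt1. The Dnmt3b bounds are those of its brightest probe, with an SE of 0.11, beside 0.13 and 0.16 on its other probes. The intervals of each siRNA alone are wider. Those of siRNA 1 allow falls of 1.27-fold for Uhrf1, 1.21-fold for Dnmt3b and 1.38-fold for Dnmt1. Those of siRNA 2 allow rises of 1.3-fold for Uhrf1, 1.32-fold for Dnmt3b and 1.38-fold for Dnmt1. The mean of both siRNAs also allows a 1.86-fold rise of Dnmt3l and a 2.16-fold fall of Tet3. All of these bounds come from a fit without the slide. For Tet3, the difference with slide as a block was -0.006 (SE 0.087, limma's adjusted p = 1).

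**Figure D2:**
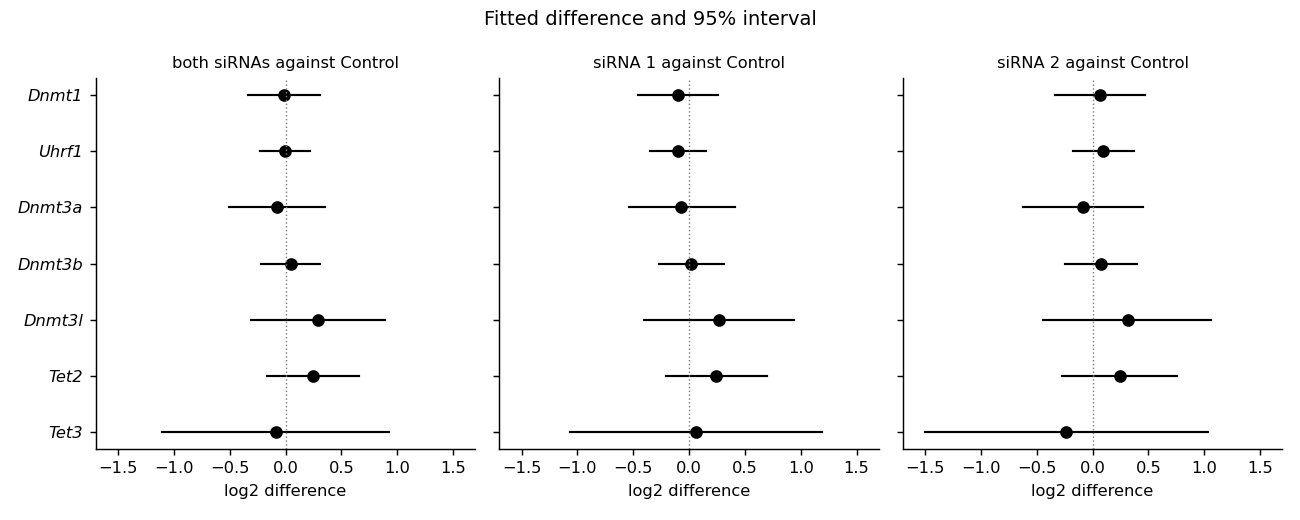
Fitted log2 difference from Control (points) with its 95% interval (lines) for the 7 members, for the mean of both siRNAs, siRNA 1 and siRNA 2. Every interval crosses 0, the intervals of Uhrf1 and Dnmt3b are narrow, and that of Tet3 spans -1.11 to 0.93 for both siRNAs.

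Each siRNA array was set against the Control array of the same slide. On the brightest probe of each, the 4 Dnmt genes, Tet2 and Tet3 had opposite signs on slide 1 and slide 2. Dnmt3l was higher than Control on slide 1 by 1.08 under siRNA 1 and 0.87 under siRNA 2, differed by -0.48 on slide 2, and by 0.20 and 0.18 on slide 3. Dnmt3a differed by -0.66 and -0.44 on slide 1, by 0.39 on slide 2, and by 0.07 and 0.11 on slide 3. Dnmt1 and Dnmt3b had the signs of Dnmt3a on all 5 siRNA arrays. Dnmt1 gave -0.43 and -0.34 on slide 1 and between 0.03 and 0.21 elsewhere. Dnmt3b gave -0.24 and -0.21 on slide 1 and between 0.12 and 0.30 elsewhere. On slide 1 the cofactor Dnmt3l was thus above its Control while Dnmt3a, Dnmt3b and Dnmt1 were below it. These are single arrays with 1 Control each, and both siRNA arrays of slide 1 share Control 1. The difference between slides was not tested, and how often all genes changed sign in this way was not counted. The brightest Tet3 probe differed from the Control of its slide by -0.12 and -0.21 on slide 1, by 0.14 on slide 2 and by 0.16 and 0.02 on slide 3. The second, A_52_P491273, lay below the Control of its slide on all 5 siRNA arrays (-0.35 to -0.05), and the dimmest gave 0.87 and 1.04 on slide 1 and -0.35 to 0.12 elsewhere. Uhrf1 differed by -0.35 for replicate 1 of siRNA 1 and by 0.01 to 0.17 on the other arrays. Tet2 differed by 0.52 and 0.19 on slide 1, by -0.07 on slide 2 and by 0.29 and 0.58 on slide 3.

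**Figure D3:**
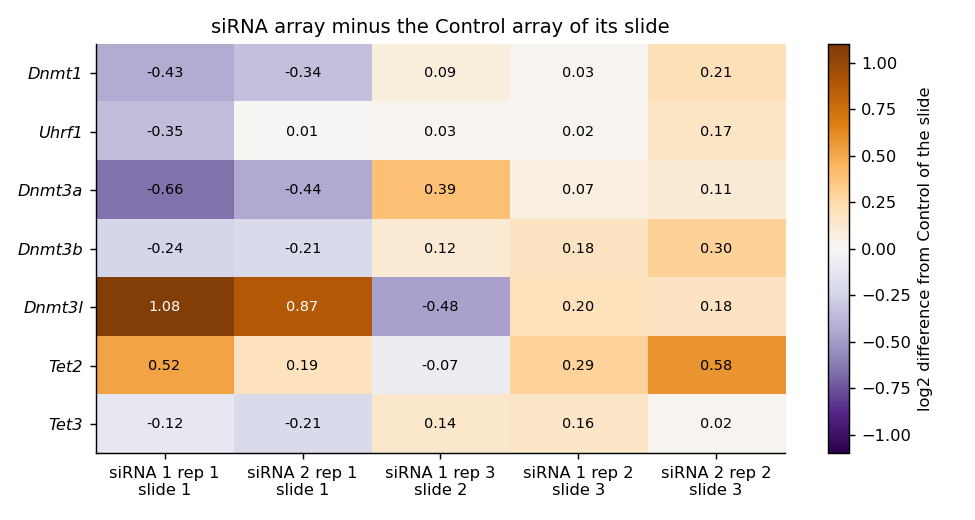
Log2 difference of each siRNA array from the Control array on its slide, for the 7 members (rows) and 5 siRNA arrays (columns), with colour and printed value giving the same number. Dnmt3l reads 1.08 and 0.87 on slide 1 and -0.48 on slide 2, and Dnmt3a, Dnmt3b and Dnmt1 carry the opposite signs there.

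Tet3 was lower on slide 1 in each group, by 0.97 in Control, 1.23 under siRNA 1 and 1.24 under siRNA 2 on the log2 scale. Its mean was -2.43 ± 0.11 on slide 1 (SD, n = 3) and -1.28 ± 0.09 on slides 2 and 3 (SD, n = 5), with no overlap. In a fit of the groups with a term for slide 1, the difference was -1.14 (SE 0.086, 95% interval -1.34 to -0.93, limma's adjusted p = 0.000754), a 2.2-fold lower signal. It kept its call under all alternatives run that can fit the term, between -1.24 and -0.81. Tet3 was the 1 member of 7 called, where 5.94% of all genes were called (1331 genes, 5.26% of genes lower and 0.678% higher). A gap between slide 1 and the other arrays was found for 1 of 7 members, again Tet3, and for 13.5% of genes. The Tet3 probe A_52_P491273 stood at -4.01, -4.36 and -4.08 on slide 1 and between -3.92 and -3.38 on the others, without overlap. Its difference was -0.49 (limma's adjusted p = 0.146). The dimmest probe, A_51_P199339, differed by -0.78 (adjusted p = 0.152), and on Control 1 it was not well above background. All 3 probes were lower on slide 1, and only the brightest passed the threshold.

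The other 6 members did not pass, with differences between slide 1 and the rest of -0.12 for Dnmt3b, 0.25 for Dnmt3l, -0.11 for Uhrf1, 0.07 for Dnmt1, -0.21 for Dnmt3a and 0.18 for Tet2. With weights for array quality, Dnmt3l (0.57, limma's adjusted p = 0.0490) and Dnmt3a (-0.42, adjusted p = 0.0491) were called as well. That fit called 3179 of 22423 genes. Control had the other sign for both members. Without weights, Dnmt3l on slide 1 differed by -0.46 in Control, 0.76 under siRNA 1 and 0.50 under siRNA 2. For Dnmt3a these values were 0.28, -0.62 and -0.33. Some cell type markers also differed between slide 1 and the rest, where 43.0% of all genes lay above 0 and 5.94% were called. Fibroblast markers lay above 0 in 6 of 6 tested, with a median of 0.36 and 1 called (Dcn, a matrix proteoglycan). Primitive and visceral endoderm markers lay below 0 in 11 of 12, with a median of -0.43 and 1 called (Apoa2, an apolipoprotein). This did not hold in every group, as the fibroblast median deviation was 0.13 on Control 1 and 0.16 on Control 2, and that of the endoderm list was -0.70 and -0.80 on the siRNA 2 arrays of slides 1 and 3. The summed level of the fibroblast list, in multiples of the array's 75th percentile, was 4.31 to 4.52 on slide 1 and 3.60 to 4.33 on the others. For the endoderm list it was 4.94 to 7.13 and 5.09 to 12.7. Fap, Lum and Postn were well above background on only 2 or 3 of the 8 arrays, and Apoa1 on 3 and Afp on 6. The sums cover tested markers only, 6 of 8 for fibroblasts and 12 of 13 for endoderm, so not all of these dim markers enter them. The part of these cell types in the Tet3 difference was not tested.

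**Figure D4:**
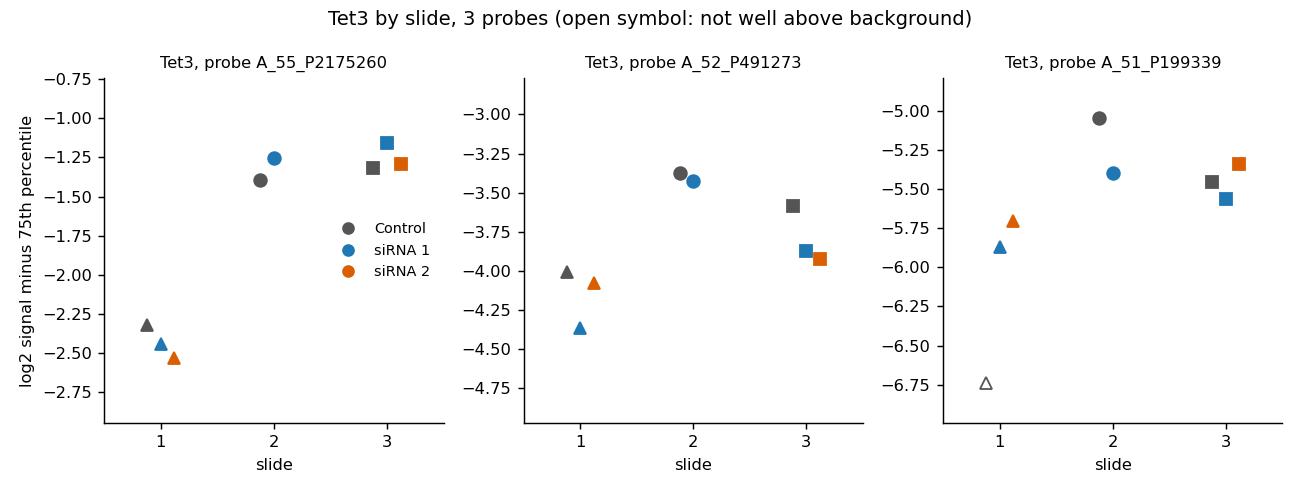
Level of the 3 Tet3 probes on each array by slide (x axis, symbol) and group (colour), in log2 units relative to the array's 75th percentile. Each panel spans the same log2 range and an open symbol marks a spot not well above background. Slide 1 arrays lie lowest for each probe, with means of -2.43 against -1.28 for the brightest.

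The spread within groups differed greatly among members. The within-group SD was 0.69 for Tet3, larger than or equal to that of 96.4% of all genes, and 0.40 for Dnmt3l (87.1%). It was 0.28 for Dnmt3a (73.8%), 0.27 for Tet2 (71.9%), 0.20 for Dnmt1 (58.7%), 0.15 for Dnmt3b (44.2%) and 0.12 for Uhrf1 (31.5%), beside a median of 0.17 over all genes. On the brightest probe of each, Uhrf1 and Dnmt3b were thus steadier within groups than the median gene. Tet3 and Dnmt3l were among the least steady. For Dnmt3b this depended on the probe. The SDs in Control, siRNA 1 and siRNA 2 were 0.19, 0.25 and 0.33 on probe A_55_P1975903. On probe A_55_P2008874 they were 0.28, 0.06 and 0.02. Every group included an array of slide 1, and by slide the Tet3 SD was 0.11 on slide 1 and 0.09 on slides 2 and 3.

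Levels of the members were correlated in pairs over the 8 arrays. Tet3 falls into separate slide clusters and was left out, which left 15 pairs of 6 members, a set chosen after the values had been seen. Dnmt3a and Dnmt3l ran against each other, with r = -0.92 (exact two-sided permutation p = 0.00139, adjusted over the 15 pairs 0.0208) and Spearman's rho = -0.81 (exact permutation p = 0.0218, adjusted 0.209). This was 1 of 15 pairs past the threshold for r, and 0 of 15 passed for rho. The permutation took the 8 arrays as exchangeable whatever their slide or group, so its p-values may be too small. The value of r was -0.94 with group means removed and -0.94 with slide means removed. It was -0.74 without replicate 1 of both siRNAs, the arrays farthest from the Dnmt3l median, and -0.67 without slide 1. Dnmt3a and Dnmt3b ran together (r = 0.75, exact permutation p = 0.0293, adjusted 0.176, rho = 0.79, exact permutation p = 0.0279, adjusted 0.209), with r = 0.51 without replicate 1 of both siRNAs. Dnmt3l and Tet2 ran together as well (r = 0.73, exact permutation p = 0.0369, adjusted 0.176, rho = 0.71, exact permutation p = 0.0576, adjusted 0.288), with r = 0.49 without those arrays. Neither passed after adjustment. The other 12 pairs had an unadjusted exact p above 0.05 for r.

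The naive pluripotency list, which holds Nanog, Esrrb, Klf4, Zfp42, Prdm14 and others of the pre-implantation state, was set beside Dnmt3l on each array. Its median deviation from the mean of the 8 arrays was 0.77 in replicate 1 of siRNA 1, 0.16 in replicate 1 of siRNA 2 and 0.33 in Control 2, the arrays with the highest Dnmt3l. It was -0.69 in Control 1 and -0.54 in Control 3, the arrays with the lowest Dnmt3l, and -0.10 to 0.02 on the remaining arrays. Primitive streak and mesoderm markers deviated by 0.85 in Control 1 and 0.59 in Control 3, by -0.66 and -0.67 in replicate 1 of siRNA 1 and siRNA 2, and by 0.01 in Control 2. They did not follow the order of Dnmt3l on the rest, with -0.50 in siRNA 2 replicate 2, 0.21 in siRNA 1 replicate 2 and 0.16 in siRNA 1 replicate 3. The endoderm list ran from -0.80 in siRNA 2 replicate 2 to 0.75 in Control 3 and did not follow it either. The summed level of the 6 tested mesoderm markers was 3.81 to 5.77 times the 75th percentile in Control. It was 2.48 to 3.89 under siRNA 1 and 2.5 to 2.53 under siRNA 2. Mixl1, well above background on 2 arrays, and Mesp1, on 3, were not tested and do not enter that sum. The part of cell makeup in the Dnmt3l levels was not tested.

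**Figure D5:**
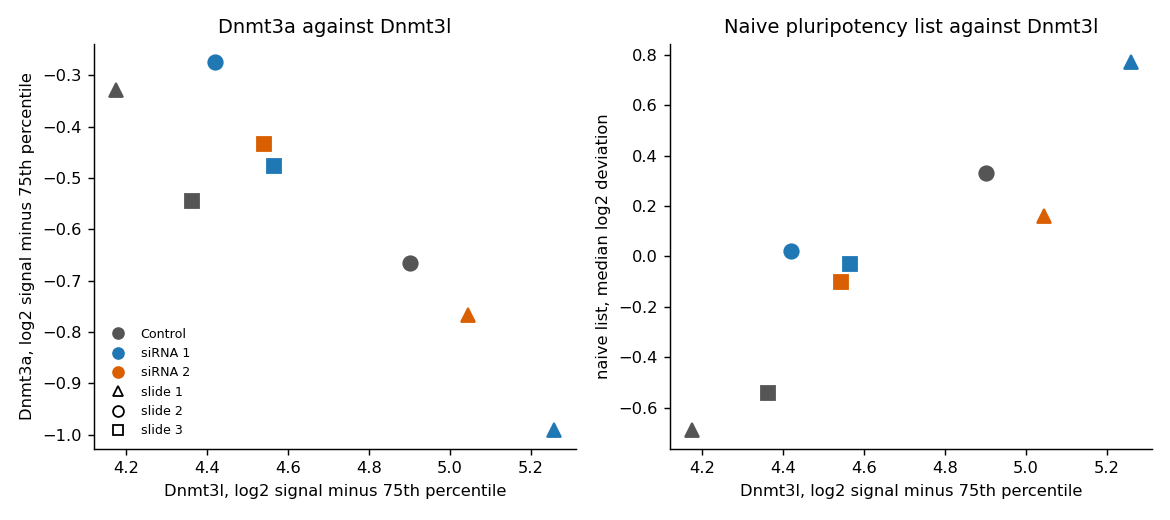
Level of Dnmt3a (left) and median log2 deviation of the naive pluripotency list from its mean over the 8 arrays (right) against the level of Dnmt3l, 1 point an array, by group (colour) and slide (symbol). Dnmt3a falls as Dnmt3l rises (r = -0.92, n = 8), and the naive list is lowest, at -0.69 and -0.54, on the Control arrays with the lowest Dnmt3l.

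The genes whose levels followed each member most closely were taken from 14891 named genes well above background on all 8 arrays, where high values of r are common with so few arrays that share slides. For Dnmt3l these were Pja1 (r = 0.994) and Dtwd2 (0.994), and for Dnmt3a Phlpp2 (0.982) and Mdfi (0.982). Dnmt3b was followed by Mgat5b (0.965) and Klf1 (0.965). Dnmt1 was followed by Zfp646 (0.999) and Rad52 (0.984), and Uhrf1 by Hspa2 (0.992) and Tada2a (0.974). Tet2 was followed by Msh6 (0.972) and Ubxn2a (0.968). For Tet3 they were Dzip1 (0.997) and Skint9 (0.996), whose r fell to 0.89 with slide means removed, whereas the other members' values lay between 0.96 and 1.0 after that step.

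The lists around the family gave no calls for both siRNAs. Of the maintenance partners, methyl-DNA readers and recruiters of DNA methylation, 0 of 24 passed in either direction for both siRNAs, and 18 lay above 0 with a median of 0.03. Hells, the remodeller that opens heterochromatin for methylation, differed by 0.18 (limma's adjusted p = 0.9999), and its siRNA arrays (1.64 to 1.90) did not overlap its Control arrays (1.48 to 1.60). Such a gap was found in either direction for 3.44% of genes, and Hells is named for its small p in this comparison. Zfp57, which protects imprinted methylation, differed by 0.25 (adjusted p = 0.9999), with 0.43 under siRNA 1 and 0.08 under siRNA 2. Of the genes for removal of oxidised bases and partners of the Tet enzymes, 0 of 21 passed, with 12 above 0 and a median of 0.02. D2hgdh, which clears the TET inhibitor 2-hydroxyglutarate, differed by 0.19 (limma's adjusted p = 0.9999). In one-carbon and S-adenosylmethionine metabolism, which supplies the methyl group, 0 of 14 tested genes passed, with 9 above 0 and a median of 0.04. Mtr, methionine synthase, differed by 0.18 (0.11 and 0.26 under siRNA 1 and siRNA 2) and Tdh, threonine dehydrogenase, by 0.17 (0.31 and 0.03). Over all genes, 52.8% lay above 0.

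Germline genes that promoter methylation keeps silent are known targets of the de novo enzymes, and 0 of 18 tested passed, with 11 above 0 and a median of 0.02. Hormad1, a meiotic chromosome axis gene, stood at -4.22, -4.22 and -4.31 in Control, at -3.66, -4.04 and -3.63 under siRNA 1 and at -3.92 and -3.96 under siRNA 2. All 5 siRNA arrays lay above the 3 Control arrays, a gap found in either direction for 3.44% of genes, and its difference of 0.39 had an unadjusted limma p of 0.00926 and an adjusted p of 0.9999. Hormad1 is named for its small p within this list, whereas the 3.44% refers to genes not chosen in that way. Ddx4, the germ cell helicase, differed by -0.19. On slide 1, 16 of 18 germline genes lay above the other slides with a median of 0.09, beside 43.0% of all genes, and 0 of 18 passed. The groups differed in this, as the list's median deviation on slide 1 was 0.23 under siRNA 1 and 0.11 under siRNA 2 but -0.09 in Control, the lowest of the 3 Control arrays. Of the S phase and DNA replication genes, which Dnmt1 and Uhrf1 accompany in cycling cells, 0 of 20 passed, with 11 above 0 and a median of 0.01. Chaf1a, a chromatin assembly subunit, differed by -0.13 (-0.24 under siRNA 1 and -0.03 under siRNA 2) and Ccne1, cyclin E1, by 0.14.

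Of the pluripotency lists, the naive one lay above 0 for both siRNAs in 13 of 13 members, beside 52.8% of all genes, with a median of 0.47, and 0 of 13 passed. Its Control arrays did not lie together, as the median deviation of Control 2 (0.33) was above that of 4 of the 5 siRNA arrays, and on slide 2 the siRNA array (0.02) was below it. Its median was 0.58 under siRNA 1 and 0.35 under siRNA 2. Fgf4, a growth factor of the early epiblast, stood at 3.23, 3.31 and 3.19 in Control, at 3.69, 3.55 and 3.76 under siRNA 1 and at 3.68 and 3.72 under siRNA 2. All siRNA arrays lay above all Control arrays, a gap found in either direction for 3.44% of genes. Fgf4 is named for its small p within this list, and its difference was 0.44 (SE 0.077, limma's adjusted p = 0.677). Unlike that of Dnmt3l, its level on Control 2 lay below all siRNA arrays, and its slide 1 difference was -0.01. Prdm14, a naive regulator, differed by 0.74 (adjusted p = 0.9999) at a dim level, and its groups overlapped, with Control 2 at -4.04, siRNA 1 replicate 2 at -4.22 and the siRNA 2 arrays at -4.04 and -4.05. Of the formative and primed epiblast genes, 0 of 10 passed, with 6 above 0 and a median of 0.05, where Pou3f1 differed by 0.21 and Sox3 by 0.19. Primitive streak and mesoderm markers had a median of -0.77 for both siRNAs and primitive and visceral endoderm markers of -0.66, with 0 called in each. The siRNAs differed in this, with mesoderm medians of -0.463 under siRNA 1 and -1.101 under siRNA 2. The endoderm median was -0.226 under siRNA 1, with 4 of 12 above 0, and -1.181 under siRNA 2, with 0 of 12 above 0. The part of these cell types in the values of the pluripotency lists was not tested.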

How the data were processed

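Total RNA of 8 samples was hybridised to 1-colour (Cy3) Agilent arrays. The deposited scanner files held intensity values extracted with Agilent Feature Extraction 10.7.3.1 and already corrected for background, per the file headers, and not scaled between arrays. The deposited value table gave log2 values, which set against the scanner files were the processed signal on the log2 scale less the array's 75th percentile, centred on each probe's median. Its column medians lay between -0.04 and 0.02. RMA is named, without its role, in the submitters' processing notes. Groups came from the sample titles.

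Control spots and those flagged as outliers were dropped, and repeat spots of a probe averaged. Accessions were matched without versions to a RefSeq table of assembly GRCm38.p6, which named 26424 of 39429 probes. The array design used mm9, so no probe coordinates are given. The brightest probe by mean over 8 arrays stood for a gene, and a gene was tested if all arrays of 1 or more groups had that probe well above background. Values were on the same log2 scale, less the 75th percentile. One limma 3.58.1 fit (lmFit, eBayes, R 4.3.3) over the 3 groups gave the siRNA comparisons, and a second added a slide 1 term. Benjamini-Hochberg adjustment ran over all genes at 0.05. The fits were tested on simulated data of independent arrays. For the siRNA comparisons these held no slide effect, so that they do not check those fits on arrays that differ by slide. Correlations used exact permutation over the 40320 orders of 8 arrays (scipy 1.17.1). Alternatives were other normalizations, background corrections, filters, probe rules, array weights, blocks and leaving out each array.

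The members and gene lists were chosen with earlier results of these data known. The named genes are all members, from each list those called or else the 2 with the smallest p for both siRNAs, and for each member the 2 most alike genes. A gene that this rule takes is not reported here, and counts include it. Dcn, Apoa2 and the 15 pairs were chosen after values were seen. Dppa3 is in the reader and the naive list, and some pluripotent cell markers are also in the naive or the primed list.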

Additional observations from a re-analysis of the deposited data

How the results depend on the processing

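Under every alternative, 0 of 7 members were called in the siRNA comparisons, and their adjusted p was never under 0.6949. Signs of the small differences did turn, in 25 of 154 values for both siRNAs, 20 of 161 for siRNA 1, 11 of 161 for siRNA 2, 23 of 161 between the siRNAs and 10 of 133 for slide 1. The causes were not tested. Without slide 1, the difference for both siRNAs was 0.195 for Dnmt1, 0.201 for Dnmt3a, -0.115 for Dnmt3l, 0.106 for Tet3 and 0.091 for Uhrf1. For siRNA 1 it was 0.060 for Dnmt1, 0.229 for Dnmt3a, -0.139 for Dnmt3l and 0.024 for Uhrf1. For siRNA 2, which was left with a lone array, it was 0.172 for Dnmt3a, -0.091 for Dnmt3l and 0.061 for Tet3. Dnmt3b turned to -0.074 (both), -0.092 (siRNA 1) and -0.055 (siRNA 2) with quantile normalization, to -0.015 (both) and -0.052 (siRNA 1) with normexp then quantile, to -0.018 (siRNA 1) with median scaling and to -0.001 (siRNA 1) with the mean of all probes, which gave Tet3 -0.011. With array weights, Uhrf1 was 0.034 (both) and Dnmt3a 0.015 (siRNA 1). With slide as a block, Uhrf1 was 0.012 (both) and Dnmt1 -0.019 (siRNA 2). Between the siRNAs, Dnmt3a was 0.004, 0.058, 0.027, 0.008 and 0.019 with quantile normalization, median scaling, normexp then quantile, no background correction and slide as a block. Tet2 there was -0.010 with no background correction, -0.0 (after rounding) with the value table and -0.065 with the mean of all probes. By the names of the scanner files the replicate numbers did not pair all samples. This was judged by correlating, over genes, each array's deviations from its group mean, and not the levels themselves. For same-numbered arrays these correlations lay between -0.042 and 0.698. Values under 0.1 were all at Control 2 or Control 3, whose names may be exchanged, and number 1 is equal to slide 1. The 2 siRNA 2 arrays deviate by opposite amounts, so that their correlations mirror each other. With the replicate block, and with slide as a block, to which exchanged names would lead, 0 genes were called in the siRNA comparisons. With the replicate block Tet3 was 0.003 and Uhrf1 0.008 (both), and between the siRNAs Dnmt3a was 0.049, Dnmt3l -0.066 and Tet2 -0.088. Leaving out 1 array gave, for both siRNAs, -0.151 to 0.124 for Dnmt1, -0.161 to 0.025 for Dnmt3a, -0.042 to 0.135 for Dnmt3b, -0.409 to 0.222 for Tet3 and -0.033 to 0.049 for Uhrf1. For siRNA 1 it gave -0.236 to 0.040 for Dnmt1, -0.221 to 0.137 for Dnmt3a, -0.037 to 0.095 for Dnmt3b, -0.261 to 0.472 for Tet3 and -0.162 to 0.003 for Uhrf1. For siRNA 2 it gave -0.067 to 0.209 for Dnmt1, -0.254 to 0.080 for Dnmt3a, -0.105 to 0.249 for Dnmt3b and -0.855 to 0.383 for Tet3. Between the siRNAs it gave -0.225 to 0.148 for Dnmt3a, -0.124 to 0.229 for Dnmt3b, -0.206 to 0.300 for Dnmt3l, -0.137 to 0.155 for Tet2 and -0.916 to 0.322 for Tet3. It gave 0 to 1 genes called for siRNA 2, 1 of them without siRNA 2 replicate 2, whose lone remaining array was assumed to vary like the other groups. With only the groups compared, 1 gene was called between the siRNAs. For slide 1, array weights gave 3179 genes and 3 members called and turned Dnmt1 to -0.109. Dnmt3b turned to 0.016, 0.055 and 0.055 with median scaling, normexp then quantile and no background correction, and Uhrf1 to 0.025 with median scaling. Leaving out 1 array gave 798 to 1255 genes, -0.139 to 0.183 for Dnmt1, -0.495 to 0.014 for Dnmt3a, -0.046 to 0.652 for Dnmt3l and -0.212 to 0.003 for Uhrf1. The dimmest Tet3 probe is limited by its signal over background.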

Other observations

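In the deposited value table, the column for Control 2 matched the scanner file of Control 3 and the reverse (r = 1 across probes), while r was -0.05 with their own. These r compare values centred on each probe's median. Each of the other 6 columns followed its own array. The levels given here carry the names of the scanner files, and both arrays belong to Control, so that group means do not depend on which name is right. The replicate block does depend on it. With the names exchanged, the replicate number would be the slide in every group, and that block would be the block on slide. The deviations of same-numbered arrays from their group means would then correlate between 0.044 and 0.698. The pair at 0.044 (Control and siRNA 1 on slide 2) would still not exceed 0.1. With the names exchanged, the high Dnmt3l level of 4.90 and the Dnmt3a level of -0.67 would belong to Control 3, still on slide 2.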
